A study of Homo sapiens with 12 samples.

Results

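The β-catenin destruction complex, its kinase CK1α, β-catenin and the transcription factor TCF7L2 were followed through pooled CRISPR knockout screens. The 8 genes were CSNK1A1, GSK3A, GSK3B, APC, AXIN1, AXIN2, CTNNB1 and TCF7L2, chosen by name out of the 18053 genes of the TKOv3 guide library. The choice was made with earlier results of these data known, so shares of all genes given beside their values are descriptions. Each was targeted by 4 guides, so that 32 of 71090 guides were involved. The screens were carried out in HCC1806, a triple-negative breast cancer line, and MIA PaCa-2, a pancreatic cancer line. Both were infected with the lentiviral library, selected with puromycin and then passaged with 0.1% DMSO, with INX-315, a CDK2 inhibitor, or with palbociclib, a CDK4/6 inhibitor. A first HCC1806 screen gave 1 start library at passage 0, 2 DMSO libraries and 2 libraries in 500 nM INX-315. A second HCC1806 screen gave 1 start library at passage 0, 1 DMSO library and 1 palbociclib library. The MIA PaCa-2 screen gave 1 library each of the start at passage 1, DMSO, 500 nM INX-315 and palbociclib. Per the labels the later libraries were at passage 8, whereas the methods give up to 5 passages. The methods give palbociclib doses of 500 nM in HCC1806 and 250 nM in MIA PaCa-2. Each sample label instead gives 250 with the unit mM in both lines. Every group was thus a pool of mutant cells of 1 line, and values of the second HCC1806 screen and of MIA PaCa-2 had no replicates within a line.

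In cells without a Wnt signal, β-catenin (CTNNB1) is held on the scaffolds AXIN1, AXIN2 and APC, phosphorylated first by CK1α (CSNK1A1) and then by the kinases GSK3A and GSK3B, and passed to the proteasome. A Wnt signal stops this, and the β-catenin that accumulates binds TCF7L2 and related factors in the nucleus to switch on target genes. AXIN2 is itself one of these targets. CK1α has other substrates as well, among them regulators of p53. In a pooled screen a guide falls in share when loss of its gene slows the growth of the cells that carry it, and rises when such cells outgrow the rest.

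The files name each guide by chromosome, position and strand, with the genome build not given in the sources used here, and hold no guide sequences, so none is printed. The guides of CSNK1A1 lay on chromosome 5 between 148891352 and 148930506 in these coordinates. Guides 1 to 4 of each gene are numbered here by position. CSNK1A1 guides 2, 3 and 4 started within 80 bases of each other, guides 2 and 3 shared 15 of their 20 bases, and guide 1 lay 39055 bases away from guide 2. The closest starts in the other 7 genes were 246 bases apart, in GSK3A.

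Library totals ran from 24946956 to 58875726 counts. DMSO 1 of the first HCC1806 screen stood apart from the other libraries. Guides under 30 counts numbered 11906 there and 4368 in DMSO 2, and its log2 CPM (counts scaled to a common library total) correlated with DMSO 2 across guides at 0.543, whereas DMSO 2 correlated with the INX-315 libraries at 0.918 and 0.919. The median change of all genes from the start was −0.85 (log2) in DMSO 1 and between −0.23 and −0.06 in the other 8 later libraries. Of the 32 guides, 2 were at 0 counts in DMSO 1, CSNK1A1 guide 2 and AXIN2 guide 4, and a count of 0 allows up to 3 counts, or 0.102 CPM there. In MIA PaCa-2 the INX-315 library correlated with DMSO at 0.700 and the palbociclib library at 0.910. Guides are not independent replicates and reads carry no molecular identifiers, so these are descriptions and the limit covers counting error only. Over all libraries guides against 31 proteasome genes, an essential reference, had median log2 changes of −3.66 to −2.23. Guides against 339 olfactory receptor genes, a reference for no effect, had medians of 0.03 to 0.09, and of −0.58 in DMSO 1.

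CSNK1A1 guides had the lowest mean change from the start of the 8 genes in 8 of the 9 later libraries, the exception being palbociclib in HCC1806, where AXIN2 was lower. Its 4 guides summed to 52.3 CPM at the start of the first HCC1806 screen, 1.66 and 10.4 in the 2 DMSO libraries (DMSO 1 first) and 12.5 and 11.6 with INX-315. In the second HCC1806 screen the sum was 52.5 CPM at the start, 8.13 in DMSO and 26.8 with palbociclib. In MIA PaCa-2 it was 52.2 CPM at the start, 29.2 in DMSO, 31.9 with INX-315 and 47.3 with palbociclib. Every later library lay below its start, and the share kept was highest with palbociclib in each line. As a share of the start, DMSO left 3.18%, 19.97% and 15.5% in HCC1806 and 55.9% in MIA PaCa-2, and palbociclib left 51.1% and 90.6%. In MIA PaCa-2 guide 4 held 19.3, 27.2 and 27.7 CPM of the sums in DMSO, INX-315 and palbociclib. The mean log2 change over guides was lower there with INX-315 (−1.76) than in DMSO (−1.17), although the sum was higher.

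The guides did not move alike. All 4 lay below the start in all 6 later HCC1806 libraries, as did all guides of 5.98% of the 17445 genes with 4 guides. Guide 1 went from 613 counts to 16, 17, 22 and 35 in DMSO 1, DMSO 2, INX-315 1 and INX-315 2, the lowest change of the 4 guides in DMSO 2 and both INX-315 libraries. Guide 3 was the least reduced in all 4, with 264 counts at the start and 31, 124, 147 and 159 later, although it overlaps guide 2, which went from 246 to 0, 45, 34 and 9. In MIA PaCa-2, guide 4 stayed above the start, with 1014 counts at the start, 1137 in DMSO, 1338 with INX-315 and 1154 with palbociclib. Guide 1 went there from 1092 counts to 249, 55 and 474, and guide 2 from 532 to 95, 31 and 149. The mean log2 change of the 4 guides was therefore −1.17 ± 1.15 (SD over guides) in MIA PaCa-2 DMSO and −2.34 ± 0.69 in DMSO of the second HCC1806 screen.

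**Figure D1:**
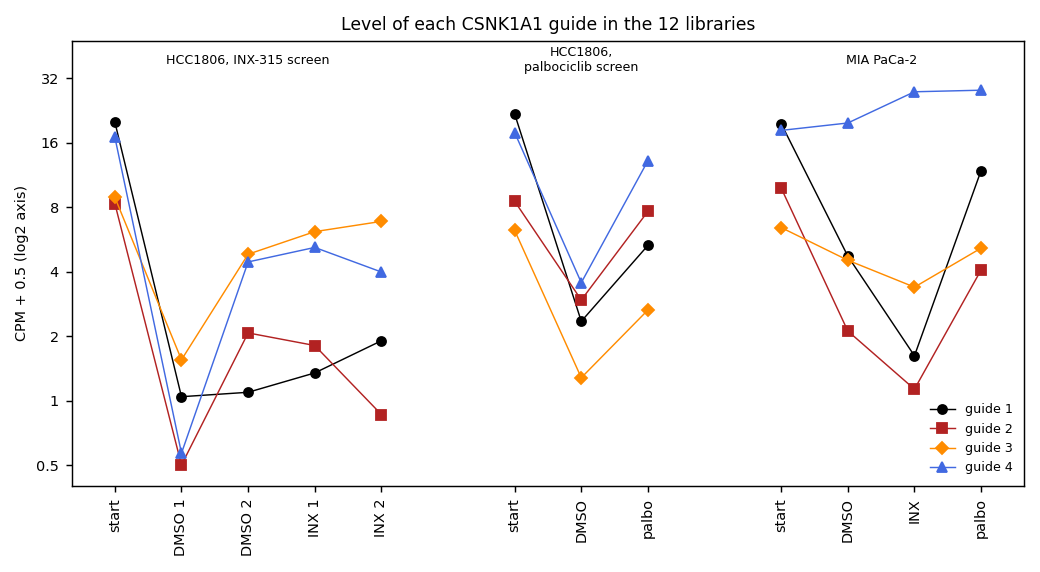
Level of each of the 4 CSNK1A1 guides, as CPM plus 0.5 on a log2 axis, in the 12 libraries; lines join the libraries of a screen. All 4 guides lay below the start in every later HCC1806 library, all 4 were higher with palbociclib than with DMSO in both lines, and guide 4 stayed above the start in MIA PaCa-2.

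Over the 3 screens, with libraries as replicates and the screen as a block, summed CSNK1A1 guides were lower in DMSO than at the start by a log2 fold change of −2.33 (SE 0.71), with an unadjusted p of 0.0117 and an adjusted p of 0.184 by edgeR's quasi-likelihood test with Benjamini-Hochberg adjustment over 18049 genes. No gene passed an adjusted p of 0.05 in that fit (0% lower and 0% higher), although 1890 genes were lower and 187 higher at an unadjusted p under 0.05. Without DMSO 1 the log2 fold change was −1.95 (SE 0.42) with an adjusted p of 0.016 by edgeR, where 8.88% of genes were called lower. DESeq2 on all 7 libraries gave an adjusted p of 0.0048 (9.52% of genes lower) and limma on mean log2 CPM of guides one of 0.0324 (8.94% lower). The other 7 genes had adjusted p-values of 0.624 to 0.96 in the edgeR fit. The proteasome reference had a median log2 fold change of −2.64 in the same comparison.

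The DMSO change of CSNK1A1 differed by 2.04 (log2, SE 1.47) between the lines, MIA PaCa-2 minus HCC1806, with an adjusted p of 1.00 by edgeR. None of the 18051 genes passed this test of the difference in either direction (0%), and 7 were lower and 105 higher at an unadjusted p under 0.05. DESeq2 called 3 genes lower and 28 higher, none of the 8 among them. The proteasome genes had a median difference of 1.48, in the same direction. In MIA PaCa-2 DMSO, guide 4 of CSNK1A1 held 19.3 of the summed 29.2 CPM. Guides 1 and 2 changed by −2.06 and −2.22 there, and by −3.22 and −1.53 in DMSO of the second HCC1806 screen. Guides 3 and 4 changed by −0.51 and 0.11 in MIA PaCa-2 DMSO, and by −2.29 and −2.33 in that HCC1806 library. The guides of 50 other genes within 2 Mb of CSNK1A1 had median changes between −0.24 and 0.09 in the 8 later libraries other than DMSO 1, and of −0.67 in DMSO 1.

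**Figure D2:**
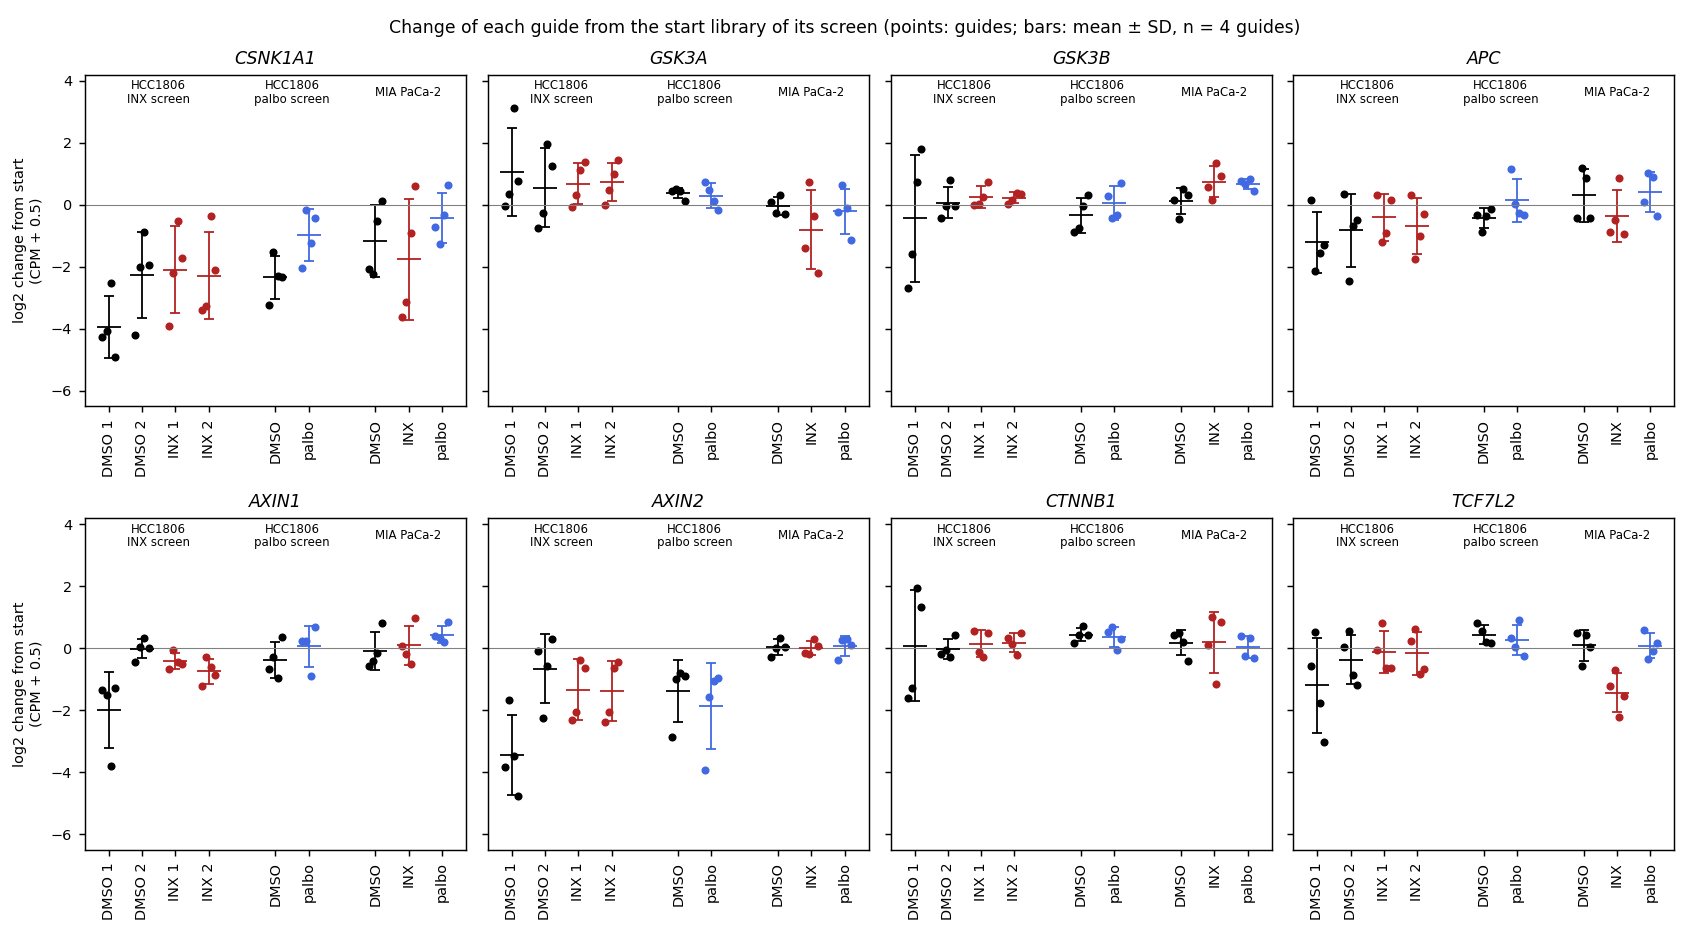
Change of each guide from the start library of its screen, as log2 of CPM plus 0.5; points are guides, bars the mean and SD over the 4 guides, with DMSO in black, INX-315 in red and palbociclib in blue. The mean of CSNK1A1 lay below 0 throughout, that of AXIN2 below 0 in HCC1806 and between 0.01 and 0.07 in MIA PaCa-2, and that of TCF7L2 at −1.43 with INX-315 in MIA PaCa-2 against 0.09 in DMSO.

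With palbociclib all 4 CSNK1A1 guides were higher than with DMSO in both lines, which held for 0.688% of the 17445 genes with 4 guides. In HCC1806 the guides went from 64 to 170, 85 to 253, 27 to 76 and 106 to 449 counts at similar library totals. The mean log2 ratio in HCC1806 was 1.37 ± 0.37 (SD, 4 guides), beside a median of 0.06 over all genes. That in MIA PaCa-2 was 0.74 ± 0.50, beside a median of 0.00. The DrugZ score (normZ) sums the standardised log2 ratios of a gene's guides, and scores past −2 or 2 are counted here as past the threshold. CSNK1A1 scored 2.63 in HCC1806, with 1.98% of all genes over 2. In MIA PaCa-2 it scored 2.43, with 1.79% over 2. The gene was still below its start in both palbociclib libraries, with mean log2 changes of −0.97 ± 0.85 and −0.42 ± 0.80.

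With the lines as replicates, CSNK1A1 had a log2 fold change of 1.19 (SE 0.30) for palbociclib against DMSO, with an unadjusted p of 6.42e-05 and an adjusted p of 0.0526 by edgeR, outside the threshold of 0.05. There were no replicates within a line, and the doses differed between the lines. The edgeR p-value therefore rests mainly on spread pooled over all genes, and little on that of CSNK1A1 itself. In that fit 0.0886% of 18049 genes were called higher and 0.0166% lower. DESeq2 placed CSNK1A1 inside the threshold (adjusted p = 0.0272, 0.266% of genes higher), while limma on mean log2 CPM gave an adjusted p of 0.414 and edgeR with scaling on olfactory receptor guides one of 0.885. Proteasome genes had median palbociclib scores of 0.35 (HCC1806) and 0.15 (MIA PaCa-2). Their part in the CSNK1A1 difference was not tested.

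The kinase GSK3B and the scaffold AXIN1 also lay higher with palbociclib. GSK3B guides summed to 90.4 CPM in MIA PaCa-2 DMSO and 128 with palbociclib, and to 63.5 and 75.6 in HCC1806. With INX-315 in MIA PaCa-2 they summed to 146 CPM, so the rise there was not particular to palbociclib. The mean log2 ratio to DMSO was 0.62 with INX-315 and 0.54 with palbociclib. AXIN1 guides summed to 58.4 and 75.6 CPM in MIA PaCa-2 and to 41.7 and 58.98 in HCC1806. All 4 guides of either gene were higher with palbociclib in MIA PaCa-2, as were those of 6.41% of genes, and in HCC1806 this held for 4 AXIN1 guides and 3 GSK3B guides. GSK3B passed the normZ threshold in MIA PaCa-2 (2.67) and not in HCC1806 (1.01). AXIN1 stayed under it in both (1.97 and 1.29). Over both lines GSK3B had a log2 fold change of 0.37 (SE 0.16, adjusted p = 0.816) and AXIN1 one of 0.43 (SE 0.19, adjusted p = 0.807) by edgeR, with unadjusted p-values of 0.024 and 0.0224. The limit given for the CSNK1A1 p-value holds for these as well. APC, the largest scaffold, scored 1.44 in HCC1806 and 0.36 in MIA PaCa-2. Of the 8 genes, 1 thus passed 2 in HCC1806 and 2 in MIA PaCa-2, and none lay under −2, where 2.56% and 2.65% of all genes lay.

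**Figure D3:**
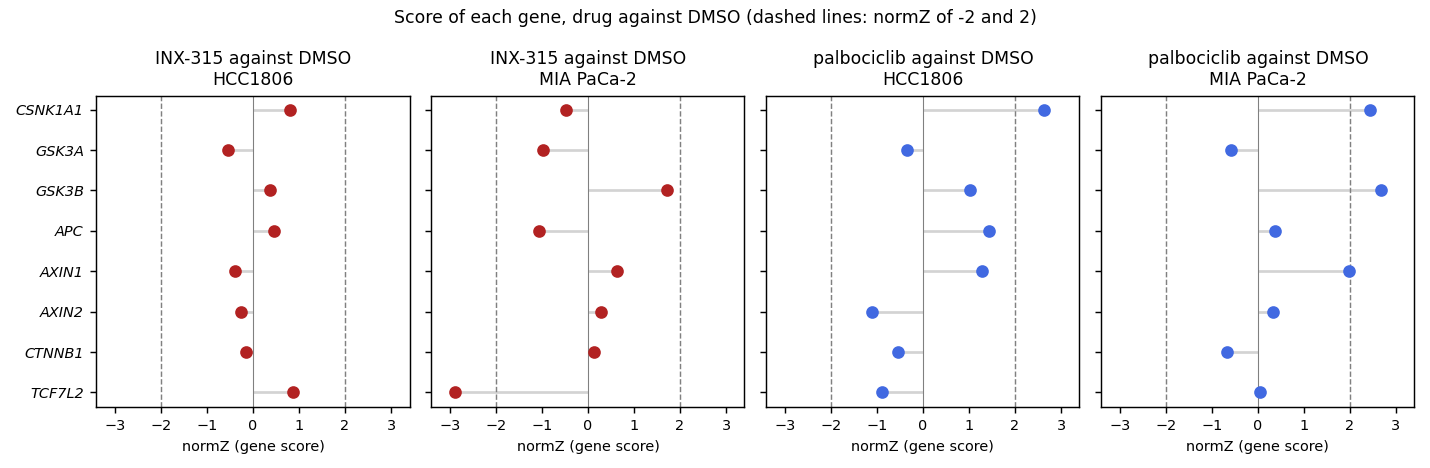
DrugZ score of each of the 8 genes for INX-315 and palbociclib against DMSO in each line; dashed lines mark −2 and 2. CSNK1A1 lay over 2 with palbociclib in both lines, GSK3B in MIA PaCa-2, and TCF7L2 lay at −2.90 with INX-315 in MIA PaCa-2.

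AXIN2 guides were lower after passage in HCC1806 and not in MIA PaCa-2. They summed to 55.4 CPM at the start of the first HCC1806 screen, 6.04 and 38.98 in the 2 DMSO libraries (DMSO 1 first) and 24.9 and 23.9 with INX-315. In the second screen the sum was 47.8 CPM at the start, 21.0 in DMSO and 16.4 with palbociclib. In MIA PaCa-2 it was 54.1 CPM at the start, 57.7 in DMSO, 55.7 with INX-315 and 61.0 with palbociclib. Of the 24 guide values in HCC1806 23 lay below the start, against 4 of 12 in MIA PaCa-2. Guides 1 and 2 had the lowest changes in the INX-315 libraries and in the second screen. Guide 1 went from 288 counts to 29 in DMSO and 5 with palbociclib in the second screen, and guides 3 and 4 went there from 394 to 245 and 204 and from 403 to 231 and 224.

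The difference between the lines in the DMSO change was 1.29 (log2, SE 1.29) for AXIN2, with an adjusted p of 1.00 by edgeR, and was 0.91 without DMSO 1 and 2.14 without DMSO 2. Guides of 37 other genes within 2 Mb of AXIN2 had median changes of −0.46 to −0.31 in the HCC1806 libraries other than DMSO 1, −1.60 in DMSO 1, and −0.17 to −0.05 in MIA PaCa-2. Proteasome genes had a median difference of 1.48 between the lines, in the same direction as AXIN2. The start was at passage 1 in MIA PaCa-2 and at passage 0 in HCC1806. The parts of the surrounding region, of the weaker loss of essential genes in MIA PaCa-2 and of the start passage in the AXIN2 values were not tested. Over the 3 screens AXIN2 had a log2 fold change of −0.84 in DMSO against the start (SE 0.57, adjusted p = 0.72 by edgeR), and its paralog AXIN1 one of −0.27 (SE 0.40, adjusted p = 0.878). With single libraries left out AXIN2 ranged from −1.33 (without DMSO 2) to −0.53 (without DMSO 1), and AXIN1 from −0.56 to −0.03 without the same libraries. AXIN1 lay at 100% of its start in DMSO 2, 27.6% in DMSO 1, 84.6% in DMSO of the second HCC1806 screen and 110% in MIA PaCa-2 DMSO.

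GSK3A guides lay above the start in HCC1806. They summed to 47.1 CPM at the start of the first screen, 182 and 97.4 in the 2 DMSO libraries (DMSO 1 first) and 80.7 and 81.3 with INX-315. In the second screen they summed to 41.8 CPM at the start, 56.0 in DMSO and 52.9 with palbociclib. In MIA PaCa-2 the sums were 42.0, 43.6, 36.5 and 42.8 CPM at the start and in DMSO, INX-315 and palbociclib. Much of the sum in the first screen came from guide 3, which went from 501 counts to 4203 and 1802 in DMSO 1 and 2, and to 910 and 801 with INX-315. Guide 4 was also above the start in all 4, going from 220 counts to 360, 503, 491 and 494, whereas guides 1 and 2 lay between −0.76 and 0.49 (log2). The log2 fold change of GSK3A over the 3 screens was 0.79 (SE 0.44, adjusted p = 0.624 by edgeR), and 0.51 without DMSO 1 (adjusted p = 0.201). It was 0.24 without the start library of the first HCC1806 screen and 1.16 without that of MIA PaCa-2. GSK3B, the other GSK3 kinase, had one of 0.25 (SE 0.28, adjusted p = 0.834).

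CTNNB1 guides, which remove β-catenin itself, lay near or above the start in sum and on average, though not each guide did. They summed to 61.3 CPM at the start of the first screen, 126 and 57.7 in the 2 DMSO libraries (DMSO 1 first) and 63.0 and 65.3 with INX-315. In the second screen the sums were 68.5, 98.9 and 87.2 CPM at the start, in DMSO and with palbociclib, and in MIA PaCa-2 64.6, 78.1, 75.4 and 70.5 CPM at the start, in DMSO, INX-315 and palbociclib. The value of DMSO 1 rested mainly on guide 3, which went from 781 to 2832 counts there and to 586 in DMSO 2. Guides 1 and 2 changed by −1.62 and −1.29 (log2) in DMSO 1, and guide 3 by −1.17 with INX-315 in MIA PaCa-2. Of the guide values 9 of 24 lay below the start in HCC1806 and 4 of 12 in MIA PaCa-2. Mean log2 changes lay between −0.02 and 0.43 in all 9 later libraries, and the log2 fold change over the 3 screens was 0.54 (SE 0.36, adjusted p = 0.715 by edgeR), and 0.24 without DMSO 1. APC lay at 45.0% and 62.7% of its start in DMSO 1 and 2, at 73.3% in DMSO of the second HCC1806 screen and at 144% in MIA PaCa-2 DMSO. Its difference between the lines was 1.14 (log2, SE 0.71, adjusted p = 1.00 by edgeR).

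TCF7L2, the DNA-binding partner of β-catenin, had its lowest level with INX-315 in MIA PaCa-2. They summed to 66.0 CPM at the start, 74.3 in DMSO, 24.8 with INX-315 and 75.8 with palbociclib, so that DMSO exceeded INX-315 by 2.99-fold. In the first HCC1806 screen the sums were 58.0 CPM at the start, 35.5 and 49.8 in the 2 DMSO libraries (DMSO 1 first) and 57.7 and 57.0 with INX-315, and in the second 62.2, 87.6 and 74.96 CPM at the start, in DMSO and with palbociclib. All 4 guides were below DMSO in MIA PaCa-2 with INX-315, from 1620 to 396, 465 to 351, 864 to 93 and 1423 to 379 counts, as were all guides of 9.48% of genes. Their mean log2 ratio was −1.53 ± 1.04 (SD, 4 guides) where the median gene lay at −0.13. The normZ was −2.90, the place 82 from the lowest of 18053 genes, and 2.86% of genes lay under −2. In HCC1806 it was 0.87.

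The difference between the lines in the INX-315 response of TCF7L2 was −1.87 (log2, SE 0.44), with an unadjusted p of 0.0098 and an adjusted p of 0.948 by edgeR over 18050 genes. None of these passed in either direction (0%), while 202 were lower and 231 higher at an unadjusted p under 0.05. DESeq2 called 1 gene, which was not TCF7L2. MIA PaCa-2 had 1 library per arm, so the SE and p-value hold only the spread among HCC1806 libraries. The arm in which TCF7L2 was low adds no estimate of spread. Without DMSO 1 the difference was −1.75 by edgeR, and without DMSO 2 it was −2.02. In these fits the spread of a lone DMSO library in HCC1806 comes from the INX-315 pair, whose members were close to each other. Leaving out DMSO 1 gave 17.5% of genes lower and 16.7% higher, and leaving out DMSO 2 gave 33.0% and 31.0%. Of the 8 genes 5 passed without DMSO 1 and all 8 without DMSO 2.

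TCF7L2 is not part of the destruction complex, and none of the others among the 8 genes passed the normZ threshold with INX-315 on all libraries. In MIA PaCa-2 the scores ran from −1.06 for APC to 1.72 for GSK3B, whose guides summed to 146 CPM against 90.4 in DMSO, and 1.63% of genes lay over 2. CSNK1A1 scored −0.48 there, with guides 1, 2 and 3 below DMSO and guide 4 above. In HCC1806 the 8 scores lay between −0.54 and 0.87, where 2.77% of genes lay under −2 and 1.44% over 2. CSNK1A1 scored 0.81. Its log2 fold change was 0.95 (SE 0.90, adjusted p = 0.747 by edgeR) in HCC1806 and 0.68 (SE 0.65, adjusted p = 0.826) over both lines. Without DMSO 1 these were 0.20 and 0.18, with a normZ of 0.25, and without DMSO 2 they were 2.63 and 1.48, with a normZ of 0.99. No gene passed either fit (0%), and at an unadjusted p under 0.05 352 genes were lower and 105 higher in HCC1806 and 466 and 201 over both lines. DESeq2 called 29 genes in HCC1806 and 33 over both lines, none of the 8 among them.

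The sign of the HCC1806 score turned with the DMSO library for 4 of the 8 genes, AXIN1, AXIN2, GSK3A and CTNNB1. AXIN1 guides summed to 14.4 CPM in DMSO 1 and 52.2 in DMSO 2, against 37.0 and 29.2 in the INX-315 libraries. Its normZ was −0.38 with all libraries, −1.91 without DMSO 1 and 0.90 without DMSO 2. That of AXIN2 was −0.27, −2.43 and 1.24, past the threshold without DMSO 1. The scores of GSK3A were −0.54, 0.57 and −1.09, and those of CTNNB1 −0.16, 0.67 and −0.65. With a whole pair of DMSO and INX-315 libraries left out, AXIN1 scored −2.37 without pair 1 and 1.08 without pair 2, and AXIN2 −2.42 and 1.26. Without DMSO 1 the log2 fold changes were −0.67 for AXIN1 (adjusted p = 0.00104 by edgeR) and −0.69 for AXIN2 (adjusted p = 0.00431), where 8.49% of genes were called lower. Without DMSO 2 they were 0.98 and 1.79, all 8 genes passed the threshold, and so did 36.5% of all genes in the lower and 37.2% in the higher direction.

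Other genes of the Wnt pathway were looked at through 8 lists of 7 to 22 genes. No listed gene passed an adjusted p of 0.05 by edgeR in the 6 comparisons on all libraries. Median changes from the start of these lists lay between −0.59 and 0.20 (log2) outside DMSO 1. With INX-315 in MIA PaCa-2 the BTRC and FBXW11 genes, which encode the paired β-TrCP ubiquitin ligase subunits that recognise phosphorylated β-catenin, lay under −2 (normZ −2.38 and −2.10). So did the ligand WNT9A (−2.62), the R-spondin RSPO3 (−2.31), the Dishevelled antagonist NKD2 (−2.94), the Paf1 complex subunit CDC73 (−2.64) and the transcription factor SOX9 (−2.82). Of all genes 2.86% lay under −2 there. In HCC1806 with INX-315 the scores of BTRC and FBXW11 lay on opposite sides of 0, at 1.57 and −1.55. In HCC1806 with INX-315, CDC73 (−2.22) and FAM83C (−2.92), of the family that anchors CK1 kinases, lay under −2, and the receptor FZD1 (2.06) and the adhesion receptor CD44 (2.41) over 2. Of all genes 2.77% lay under −2 and 1.44% over 2 in that comparison. Listed genes were scored there with DMSO 1 included only. CDC73 was the one listed gene past −2 with INX-315 in both lines.

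With palbociclib in HCC1806 the co-receptors LRP5 and LRP6 lay on opposite sides (normZ −2.15 and 2.63), and LEF1, a relative of TCF7L2 (−2.26), the kinase HIPK2 (−2.39), the β-catenin antagonist CBY1 (−2.49) and the junction protein CTNNA2 (−2.11) lay under −2. In MIA PaCa-2 the receptor FZD3 (−2.11) and KREMEN1 (−2.46), a receptor for Dickkopf inhibitors, lay under −2 and the ubiquitin ligase SIAH1 (2.43) over 2. The median score of the list of other CK1 kinases and their FAM83 anchors with palbociclib was 0.31 in HCC1806 and 0.55 in the other line, with none of its 15 genes past the threshold, beside 0.33 and 0.35 for the 8 genes and 0.01 and 0.03 for all genes.

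**Figure D4:**
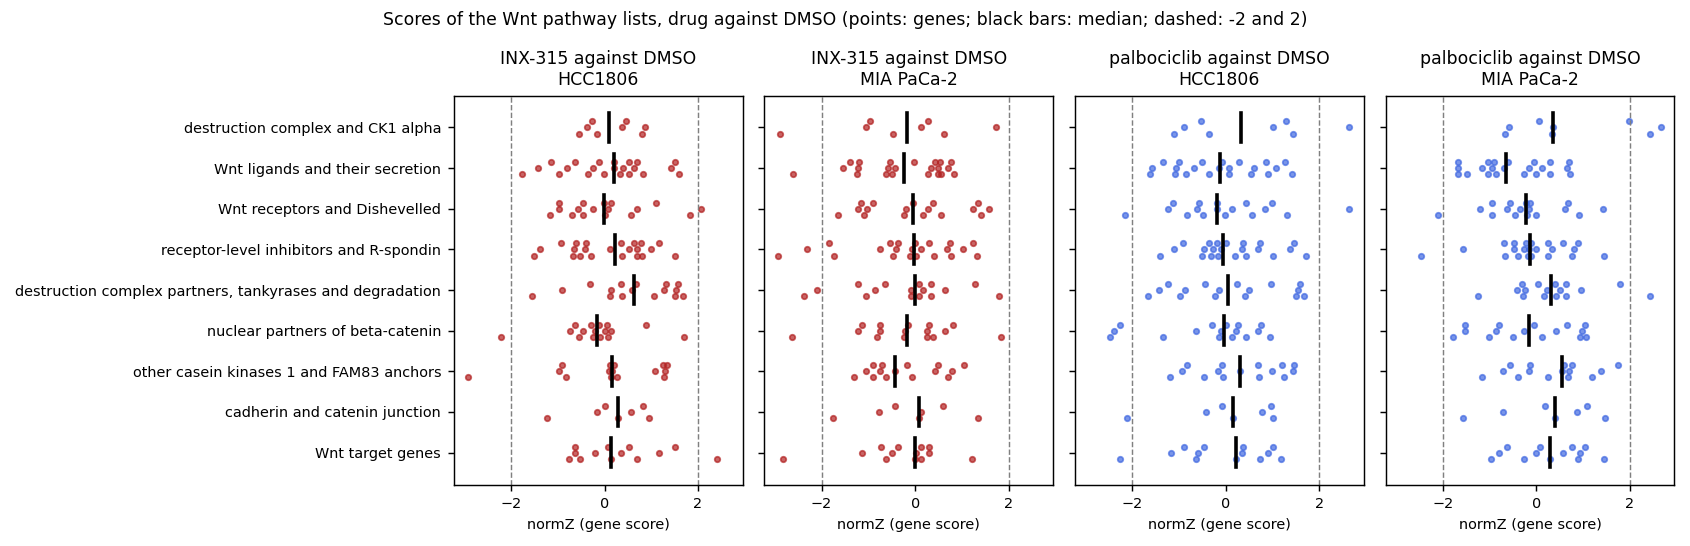
DrugZ scores of the genes of each Wnt pathway list in the 4 drug comparisons; points are genes, black bars the median of the list and dashed lines −2 and 2. List medians lay between −0.65 and 0.63, with single genes of most lists past a dashed line.

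Genes with the pattern most like each of the 8 were found by the Pearson correlation of mean log2 changes from the start over the 9 later libraries, among 17627 genes with at least 3 guides. These libraries share start and DMSO libraries and the shift of DMSO 1, so the correlations are descriptions. CSNK1A1 was most like RAB43 (0.989), OGT (0.986) and GTF2I (0.978). OGT, the O-GlcNAc transferase, changed by −4.15 to −1.82 where RAB43, a small GTPase, changed by −1.21 to −0.06. Among the genes most like GSK3A were ZNF428 (0.982) and CLIC4 (0.980), and GSK3B was most like TARS2 (0.976), CDKN3 (0.968) and C9orf78 (0.965). APC was most like PPARGC1B (0.979), PCDHGC5 (0.977) and GOLGA2 (0.969), AXIN1 like PRPF4B (0.980), CD163 (0.980) and TMC8 (0.979), and AXIN2 like SNX15 (0.987), LRRC8E (0.987) and DPT (0.982). CTNNB1 was most like NTRK3 (0.940), WNT5A (0.928) and PRMT8 (0.911), and TCF7L2 like POU2F2 (0.982), LRRC16A (0.982) and IL18R1 (0.980). None of the 8 was among the 3 nearest of another.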

How the data were processed

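Guide cassettes were amplified out of genomic DNA and sequenced. The authors trimmed adapters with Trim Galore and deposited raw counts per guide made with MAGeCK (version 5.9 per the labels). The authors also deposited normalized tables, whose signal values are the raw counts times 1 factor per library, and these served as an alternative only. Gene names were read from guide names, since 109 gene cells had turned into dates. Changes from the start are log2 of CPM plus 0.5. Gene sums of guide counts were tested with edgeR 4.0.16 (TMM, filterByExpr, quasi-likelihood, R 4.3.3) with the screen as a block, and Benjamini-Hochberg adjustment ran over all genes. DESeq2 1.42.0 and limma 3.58.1 were alternatives. The study describes the HCC1806 libraries with INX-315 as 2 biological replicates and the other screens as 1 each. The p-values rest on the spread between these libraries or lines. The fits draw that spread partly from all genes, and for palbociclib by edgeR mainly so. For differences between the lines that spread came from HCC1806 libraries alone, since MIA PaCa-2 had 1 library per arm. DrugZ was rewritten in Python 3.11.15 (pseudocount 5, window of 1000 guides in steps of 25, 10000000 counts per library), paired by replicate number in HCC1806 with INX-315. Its score is given with no p-value, since guides are not replicates. Both were run on simulated data that held no library standing apart as DMSO 1 did, so power in these libraries was not tested. The named genes were all 8 members, the 3 most alike of each, and in each list the 3 genes at most that scored furthest beyond −2 or 2 per drug comparison (none passed the adjusted p that would have named more). One gene that this rule names is not reported here. The members and lists were chosen with earlier results of these data known. All 8 symbols and 160 of 161 listed genes were in the library. Other settings were library totals, olfactory receptor scaling, unfiltered genes, a replicate block, other pseudocounts, at least 30 DMSO counts, and each library left out.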

Additional observations from a re-analysis of the deposited data

How the results depend on the processing

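Of the alternative counts of genes past a threshold among the 8, 74 stayed within 1.5 times the reported count and 10 did not. For DMSO against the start the count of 0 became 1 with DESeq2 and 1 with limma on mean log2 CPM, CSNK1A1 each time, and ranged from 0 to 1 when 1 library was left out. For palbociclib against DMSO it became 1 with DESeq2, again CSNK1A1. Leaving out 1 library gave 0 to 8 for INX-315 in HCC1806 by edgeR, 0 to 1 for its normZ (2 without the whole pair 1), 0 to 8 for the line difference in the INX-315 change, and 0 for INX-315 over both lines and for the line difference in the DMSO change. With 1 DMSO library left in HCC1806, its spread is taken from the other groups. Left-out libraries gave log2 fold changes in HCC1806 with INX-315 of −0.67 to 0.98 for AXIN1 and −0.69 to 1.79 for AXIN2. For CSNK1A1 they gave −2.93 to −1.76 in DMSO against the start. AXIN1 in HCC1806 with INX-315 also turned from −0.07 to 0.42 with limma and to 0.14 with the replicate block. The cause was not tested. No leave-one-out fit was possible for palbociclib, which has no residual degrees of freedom without 1 of its 4 libraries.

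Whether the replicate numbers of the HCC1806 screen pair the libraries could not be settled. Deviations of same-numbered libraries from their group means correlated at −0.01 across 71090 guides. This value sets the difference between the DMSO libraries against that between the INX-315 libraries. Since DMSO 1 stood apart from the other libraries, it cannot exclude pairing. With the replicate block, 0 of the 8 genes passed for INX-315 in HCC1806, over both lines or for the line difference, CSNK1A1 had a log2 fold change of 1.40 in HCC1806 (0.95 without the block), and 7 genes of all were called lower where none was without it. The reported HCC1806 normZ with INX-315 pairs libraries by number. Unpaired, 0 of the 8 genes passed, with scores of 1.18 for CSNK1A1 (0.81 paired), −0.08 for AXIN1 (−0.38 paired) and −0.51 to 1.05 for the other 6. Scaling on olfactory receptor guides moved the median log2 fold change of all genes in DMSO against the start from 0.05 to −0.17, so CSNK1A1 lay at −2.53 there. Low counts limit the values of DMSO 1, where a pseudocount of 5 CPM moved the mean change of CSNK1A1 from −3.94 to −1.68 and of AXIN2 from −3.44 to −1.58. The remaining values moved little, with 189 normZ alternatives within 1 of the reported score and 11 beyond it, and 209 changes from the start within 1 SD over guides and 7 beyond it.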
